A study of Homo sapiens with 9 samples.

Results

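The netrin and repulsive guidance molecule (RGM) axis is described here as 10 genes of the 22295 rows in the expression table of U251 cells, an established human glioblastoma line. The genes were chosen by name, as 4 secreted or membrane-anchored ligands (NTN1, NTN4, RGMA and RGMB) and 6 receptors (UNC5A, UNC5B, UNC5C, UNC5D, DCC and NEO1), and all 10 were found. RNA was sequenced from 9 libraries in 3 groups of 3. The sh-Luci-3d cells had received a lentivirus with a short hairpin RNA against luciferase, which is the control, and were collected 3 days post infection (dpi). The sh-Ptbp1-3d and sh-Ptbp1-7d cells had received a hairpin against PTBP1, an RNA-binding repressor of neuronal splicing, and were collected at 3 and 7 dpi. These groups are called the control, the day-3 knockdown and the day-7 knockdown below. The vectors carried an M-cherry marker, and in the study's scheme all cells were moved at 2 dpi to a neuronal induction medium that held N2, B27, forskolin (an activator of adenylyl cyclase) and dorsomorphin (an inhibitor of AMPK and of BMP type I receptors). The cells were a bulk culture of 1 line, and nothing in the labels says that the libraries of a group came from separate cultures, so the p-values measure the spread between these libraries only. The study's 9 libraries include no sh-Luci library at 7 dpi. In both comparisons with the 7 dpi group the time in the medium and the knockdown therefore cannot be told apart.

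Netrins are laminin-related secreted proteins that steer growing axons and vessels. DCC and neogenin (NEO1) are their attractive receptors, the 4 UNC5 proteins mediate repulsion, and the RGM proteins are GPI-anchored ligands of neogenin that also act as BMP co-receptors. DCC, neogenin and the UNC5 proteins are called dependence receptors because, in cells that lack enough ligand, their cytoplasmic parts can be cleaved by caspases and start cell death, and for UNC5B this runs through the kinase DAPK1. For these reasons the amounts of ligand and receptor mRNA are set against each other below, but mRNA levels measure neither protein nor binding.

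Levels are given in FPKM, fragments scaled by transcript length and by the mapped fragments of the library, which allows genes to be compared per length. Coordinates are those of GENCODE 29 on GRCh38. A gene was said to have risen or fallen where the limma test on log2(FPKM + 0.1) over 15551 genes passed a false discovery rate (FDR) of 0.05 at 3 dpi, or of 0.01 for the comparisons with the day-7 knockdown, and the study's fold threshold of 2 is given beside it. With 3 libraries against 3 an exact permutation test on 1 gene cannot go below p = 0.1, so the calls rest on the fit across all genes. The number of reads per library is unknown, and the summed FPKM ranged from 367412 to 404922.

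PTBP1 itself, the targeted gene, stood at 111, 112 and 124 FPKM in the control libraries, at 66.2, 64.4 and 61.0 FPKM in the day-3 knockdown libraries and at 49.7, 50.7 and 51.0 FPKM in the day-7 knockdown libraries. Its log2 fold change was -0.85 at 3 dpi (standard error, SE, 0.0725, limma adjusted p = 0.00314) and -1.19 at 7 dpi against the control, with each group's libraries apart from the others. The call at 3 dpi was lost when these 2 groups were fitted alone (-0.85, limma adjusted p = 0.0519). The sh-Ptbp1-3d replicate 3 library stood apart, with 11.5 FPKM of STMN2, a neuronal microtubule regulator listed at 0 in the other 8 libraries, and 2.14 FPKM of DCX, a marker of immature neurons that did not exceed 0.0346 FPKM elsewhere. It is named below beside several values that rest on it. The glioma and astroglial markers summed to 4370 to 4490 FPKM in the control and 4460 to 4750 in the day-3 knockdown. In the day-7 knockdown they summed to 1250 to 1380 FPKM, and VIM made up most of the sum in each group. GFAP stayed at or below 1.15 FPKM and ALDH1L1 was at 0 in 8 of 9 libraries. CD44 of the same list (means 182, 166 and 62.3 FPKM) was also lower at 7 dpi. SLC1A3 (1.99, 2.02 and 7.66 FPKM) and S100B (0.121, 0.115 and 0.797 FPKM) were higher. In the same order of groups the neuronal markers summed to 272 to 321, 342 to 366 and 164 to 170 FPKM, mostly TUBB3. In contrast, MAP2 (means 22.4, 20.3 and 38.9 FPKM) and SNAP25 (1.27, 2.68 and 4.32 FPKM) of the same list were higher at 7 dpi. GAP43 (0.943, 1.82 and 0.203 FPKM) was lower at 7 dpi, and SYT1 (5.71, 6.05 and 5.63 FPKM) differed little. The day-3 knockdown mean of GAP43 rests on 3.88 FPKM in sh-Ptbp1-3d replicate 3. SNAP25 had 3.86 FPKM in sh-Ptbp1-3d replicate 3, beside 2.05 and 2.14 FPKM in the others of that group. The markers of fibroblasts and pericytes summed to 237 to 273, 248 to 259 and 459 to 542 FPKM, mostly COL1A2. ACTA2 (means 6.95, 6.76 and 15.8 FPKM) and FAP (0.131, 0.142 and 0.782 FPKM) of this list were also higher at 7 dpi. THY1 (23.7, 23.2 and 15.8 FPKM), RGS5 (1.29, 1.24 and 0.749 FPKM) and PDGFRB (0.479, 0.354 and 0.201 FPKM) were lower. Oligodendrocyte markers summed to 37.3 to 53.3, 46.0 to 48.4 and 70.6 to 80.2 FPKM, nearly all CNP, with MOG, MAG and OPALIN at 0. Immune markers summed to 10.4 to 11.5, 10.9 to 11.6 and 16.2 to 19.0 FPKM, nearly all CD68, with CD3E, AIF1 and CD2 at 0, and endothelial markers to at most 2.44 FPKM in any library. Their part in the results below was not tested, and in bulk RNA fewer cells of a type and less RNA per cell cannot be told apart.

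The UNC5 family changed its makeup between 3 and 7 dpi. UNC5C, which made up nearly all UNC5 mRNA at 3 dpi, gave way to a mixture of UNC5C, UNC5B and UNC5D at 7 dpi, in which UNC5B and UNC5D each had risen more than 10-fold. UNC5A and DCC were at or close to 0 throughout, and NEO1 rose from a low level. Among the ligands, NTN4 and RGMB rose less than 2-fold, RGMA passed against the control but not against the day-3 knockdown, and NTN1 did not pass the test in any comparison.

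UNC5B (ENSG00000107731, chr10:71212570-71302864, plus strand) encodes the UNC5 receptor best known from vessel guidance, and the study took it up as a candidate from these libraries. Its level was 0.319, 0.248 and 0.271 FPKM in the control, 0.426, 0.472 and 0.504 FPKM in the day-3 knockdown, and 5.76, 5.53 and 5.77 FPKM in the day-7 knockdown. The 3 groups did not overlap, and the step from 3 to 7 dpi was far larger than the step between the groups at 3 dpi. From the day-3 knockdown (0.467 ± 0.0391, SD, n = 3) to the day-7 knockdown (5.69 ± 0.135, SD, n = 3) the mean FPKM rose 12.2-fold, with a log2 fold change of 3.35 ± 0.161 (SE; limma adjusted p = 7.86e-08). Against the control (0.28 ± 0.036, SD, n = 3) the mean was 20.3-fold higher at 7 dpi (log2 fold change 3.93, limma adjusted p = 2.82e-08). At 3 dpi the mean was 1.67-fold that of the control, a log2 difference of 0.58 (standard error 0.161) that did not pass (limma adjusted p = 0.474, with a range of 0.0796 to 0.989 under other settings).

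UNC5D (ENSG00000156687, chr8:35235457-35796550, plus strand), an UNC5 receptor known from migrating cortical neurons, had a fold change close to that of UNC5B. Its level was 0.204, 0.251 and 0.116 FPKM in the control, 0.189, 0.315 and 0.203 FPKM in the day-3 knockdown, and 4.04, 4.07 and 3.15 FPKM in the day-7 knockdown. The libraries at 3 dpi intermingled, and those at 7 dpi lay above all of them. The mean rose 15.9-fold from the day-3 knockdown (log2 fold change 3.53 ± 0.25 SE, limma adjusted p = 1.18e-06) and was 19.7-fold that of the control (3.75 on the log2 scale, limma adjusted p = 7.46e-07). The log2 difference at 3 dpi was 0.22 with a standard error of 0.25 and an adjusted p of 0.883.

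UNC5C (ENSG00000182168, chr4:95162504-95549206, minus strand), whose protein guides cerebellar and spinal axons, was the most abundant receptor of the axis in each group. It stood at 11.4, 12.0 and 8.46 FPKM in the control, at 9.92, 10.5 and 9.6 FPKM in the day-3 knockdown and at 8.86, 8.16 and 6.18 FPKM in the day-7 knockdown. All 3 libraries at 7 dpi lay below the day-3 knockdown libraries, but they overlapped with sh-Luci-3d replicate 3. The log2 fold change was -0.38 from the day-3 knockdown (standard error 0.156, limma adjusted p = 0.0638) and -0.45 from the control (limma adjusted p = 0.0332), and neither passed the FDR of 0.01. Without sh-Luci-3d replicate 3 the value against the control was -0.61 and passed (limma adjusted p = 0.00433). It also passed with median-ratio scaling (-0.55, limma adjusted p = 0.00787) and with quantile normalization (-0.57, limma adjusted p = 0.00574).

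UNC5A (ENSG00000113763, chr5:176810477-176880898, plus strand) and DCC (ENSG00000187323, chr18:52340172-53535903, plus strand) had means under 0.1 FPKM over the 9 libraries and were not tested. UNC5A was listed at 0 in 5 libraries, and in the others it had 0.0237 FPKM in sh-Luci-3d replicate 3, 0.042 FPKM in sh-Ptbp1-3d replicate 2, 0.33 FPKM in sh-Ptbp1-3d replicate 3 and 0.0156 FPKM in sh-Ptbp1-7d replicate 1. DCC, the main attractive netrin receptor of axons, was listed at 0 in 8 libraries and had 0.0159 FPKM in sh-Ptbp1-3d replicate 3. The highest value of both genes therefore came from the library that also held STMN2 and DCX.

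NEO1 (ENSG00000067141, chr15:73051710-73305206, plus strand) encodes neogenin, the relative of DCC that binds RGM proteins. It had 0.298, 0.139 and 0.185 FPKM in the control, 0.179, 0.159 and 0.359 FPKM in the day-3 knockdown, and 0.986, 0.914 and 0.926 FPKM in the day-7 knockdown. The groups at 3 dpi overlapped and the libraries at 7 dpi were higher than all of them. The mean rose 4.05-fold from the day-3 knockdown (log2 fold change 1.70 ± 0.295 SE, limma adjusted p = 0.000738) and was 4.54-fold that of the control (1.79 on the log2 scale, limma adjusted p = 0.000496). Without sh-Ptbp1-3d replicate 3, which had the highest NEO1 level at 3 dpi, the first log2 fold change was 1.95 (limma adjusted p = 0.000502). The log2 difference at 3 dpi was 0.097 and turned to -0.16 without that library.

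The counts of members that passed were read against all tested genes. The study had taken up UNC5B from these libraries, and NTN4 and RGMA through mining of its RNA-seq data. The counts and medians below are therefore descriptions and no test of the members as a set. From 3 to 7 dpi of knockdown, 5 of the 8 tested members rose at the FDR and none fell, where 35.8% of all tested genes passed in either direction and 20.3% passed as higher. The genes that rose were UNC5B, UNC5D, NEO1, NTN4 and RGMB. Of these, UNC5B, UNC5D and NEO1 also exceeded the fold threshold, as did 14.2% of all genes, 8.31% as higher. The libraries did not overlap for 7 of 8 members, where the share over all genes was 62.3%. The 6 that were higher compare with 35.3% of all genes, and the 1 that was lower (UNC5C) with 27.0%. The members' median log2 fold change was 0.84, beside 0.092 over all genes. 

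Against the control, 6 of 8 members rose at 7 dpi, RGMA being the addition, where 35.6% of all genes passed and 20.6% passed as higher. With RGMA, 4 exceeded the fold threshold too, where 14.6% of all genes did and 8.93% were higher. The libraries of 6 members did not overlap and were higher, where 55.9% of all genes did not overlap and 32.8% were higher. The median was 0.98, beside 0.099 over all genes. Both comparisons use the same day-7 knockdown libraries. At 3 dpi none of the 8 members passed by limma, where 0.0322% of all genes did, and 0.0129% exceeded the fold threshold too. UNC5B alone had an unadjusted p below 0.05, as had 7.24% of all genes. It was also the single member whose libraries did not overlap, where 10.8% of all genes did not overlap and 5.86% were higher.

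**Figure D1:**
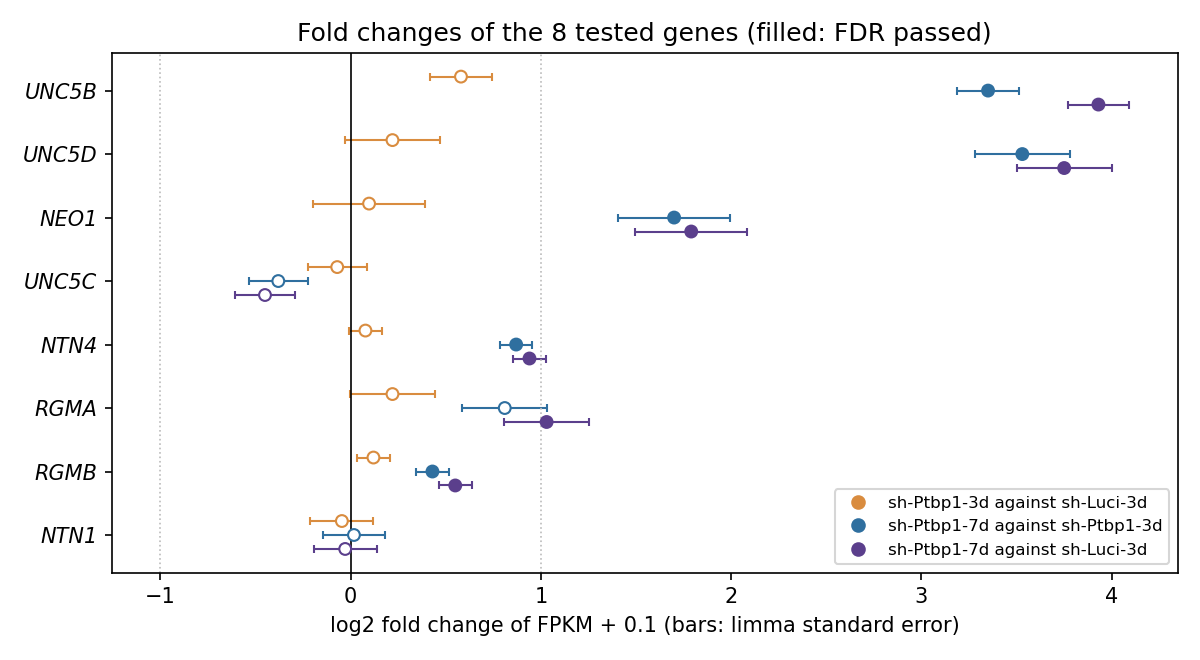
Log2 fold change of FPKM + 0.1 for the 8 tested genes in the 3 comparisons (colours), with limma standard errors as bars, filled points where the FDR was passed, and dotted lines at a 2-fold change. UNC5B and UNC5D lie above 3 in both comparisons with the day-7 knockdown, and every point for the day-3 knockdown against the control is open.

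The summed UNC5 mRNA was 11.1 ± 1.94 FPKM in the control, 10.8 ± 0.421 FPKM in the day-3 knockdown and 17.2 ± 1.86 FPKM in the day-7 knockdown (SD, n = 3 each). UNC5C held 95.7% ± 0.317 of this sum in the control, 92.4% ± 1.98 in the day-3 knockdown and 44.8% ± 3.43 in the day-7 knockdown. The share of UNC5B was 2.67, 1.99 and 3.06% in the control, 4.05, 4.17 and 4.74% in the day-3 knockdown, and 30.8, 31.1 and 38.2% in the day-7 knockdown. The share of UNC5D was 1.68% ± 0.352, 2.16% ± 0.543 and 21.8% ± 1.03 in the same order. Without UNC5C the UNC5 sum went from 0.478 ± 0.0586 FPKM in the control and 0.827 ± 0.211 FPKM in the day-3 knockdown to 9.45 ± 0.463 FPKM in the day-7 knockdown, so that UNC5B and UNC5D together came to exceed UNC5C in each of the 3 libraries at 7 dpi. The day-3 knockdown libraries had 0.615, 0.828 and 1.04 FPKM in this sum. The highest was sh-Ptbp1-3d replicate 3, which held 0.33 FPKM of UNC5A. These sums and shares are descriptions with no test, since they combine the levels already tested.

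**Figure D2:**
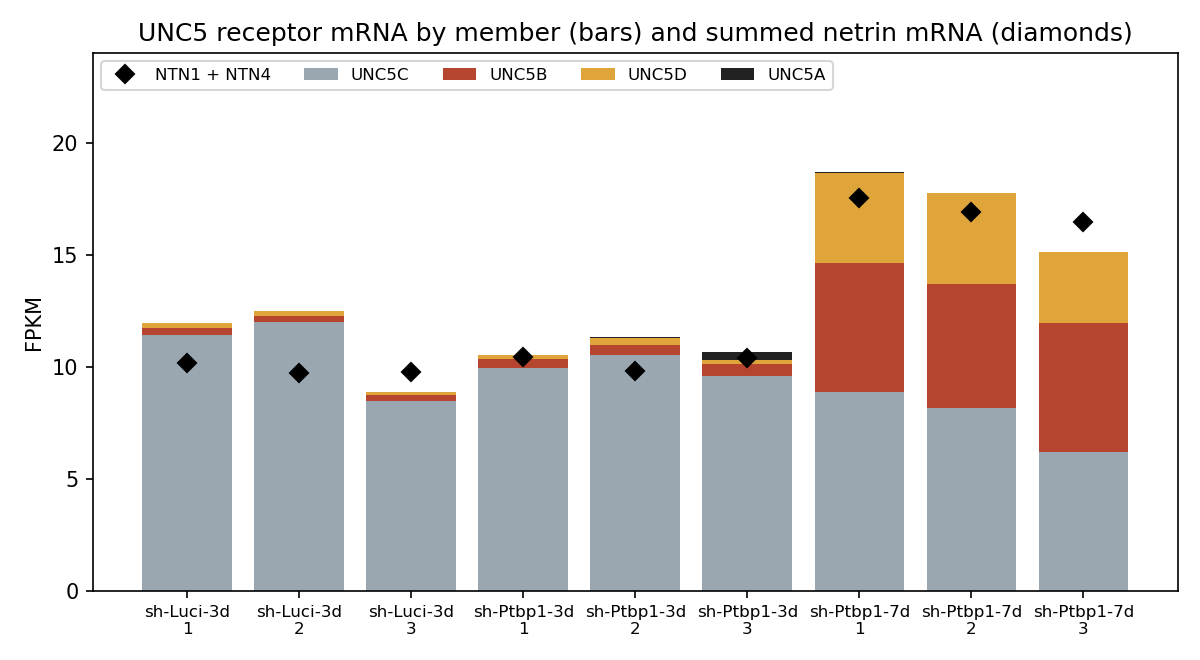
Stacked bars of UNC5C, UNC5B, UNC5D and UNC5A FPKM in each of the 9 libraries, with the sum of NTN1 and NTN4 FPKM as diamonds. The bars at 3 dpi are almost all UNC5C, the 3 bars at 7 dpi are taller and mixed, and the diamonds lie near the tops of the bars in each group.

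RGMB (ENSG00000174136, chr5:98768650-98798643, plus strand), an RGM protein first known from dorsal root ganglia, was the most abundant member in each group. It had 27.9, 26.5 and 22.9 FPKM in the control, 28.1, 27.8 and 27.8 FPKM in the day-3 knockdown, and 37.0, 40.0 and 36.0 FPKM in the day-7 knockdown. Only the libraries at 7 dpi stood above the rest, with a mean 1.35-fold that of the day-3 knockdown (log2 fold change 0.43 ± 0.0868 SE, limma adjusted p = 0.00195) and 1.46-fold that of the control (0.55 on the log2 scale, limma adjusted p = 0.000376). Without sh-Ptbp1-7d replicate 2 the first comparison no longer passed (0.39, limma adjusted p = 0.0123).

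RGMA (ENSG00000182175, chr15:93035273-93089204, minus strand), the RGM protein known to repel axons through neogenin and RhoA, had 3.4, 3.47 and 5.14 FPKM in the control and 3.6, 5.72 and 4.68 FPKM in the day-3 knockdown. In the day-7 knockdown it had 8.81, 6.16 and 9.81 FPKM, above all libraries at 3 dpi but with the widest spread, relative to the mean, of the 4 ligands in that group. The mean was 1.77-fold that of the day-3 knockdown, a log2 difference of 0.81 (standard error 0.223) that missed the FDR of 0.01 (limma adjusted p = 0.0115). Against the control it rose 2.06-fold (log2 fold change 1.03, limma adjusted p = 0.00302). That call was lost without sh-Luci-3d replicate 1 (adjusted p = 0.0136) or 2 (0.0125) and without sh-Ptbp1-7d replicate 1 (0.0135) or 3 (0.0154), whereas the comparison between the knockdown groups passed without sh-Luci-3d replicate 3 (0.00596), sh-Ptbp1-3d replicate 2 (0.00912) or sh-Ptbp1-7d replicate 2 (0.00521). It also passed in TPM (0.00548), with a filter at 1 FPKM (0.00918) and with the 2 groups fitted alone (0.00984).

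NTN4 (ENSG00000074527, chr12:95657807-95791152, minus strand), a netrin of basement membranes, had 8.24, 7.58 and 7.2 FPKM in the control, 8.32, 7.79 and 8.18 FPKM in the day-3 knockdown, and 15.0, 14.7 and 14.7 FPKM in the day-7 knockdown. The groups at 3 dpi overlapped and the 7 dpi libraries formed a tight group above them. The mean rose 1.83-fold from the day-3 knockdown (log2 fold change 0.87 ± 0.0846 SE, limma adjusted p = 1.26e-05) and 1.93-fold from the control (0.94 on the log2 scale, limma adjusted p = 6.64e-06).

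NTN1 (ENSG00000065320, chr17:9021542-9244000, plus strand), the classical axon attractant, had 1.91, 2.12 and 2.55 FPKM in the control, 2.12, 2.01 and 2.2 FPKM in the day-3 knockdown, and 2.52, 2.22 and 1.74 FPKM in the day-7 knockdown. All 3 groups overlapped. The log2 difference from the day-3 knockdown to the day-7 knockdown was 0.0175 with a standard error of 0.165 (limma adjusted p = 0.94), the difference from the control to the day-7 knockdown was -0.0285 (limma adjusted p = 0.903), and the sign of both depended on the scaling or on single libraries.

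Sequence before the annotated start was at hand for 7 of the 10 genes, from RefSeq on GRCh38.p14, as windows of 250 bases. Printed are the windows before the outermost start of the 3 ligand genes whose libraries at 7 dpi stood above the rest. They run 5′ to 3′ on the strand of the gene. These genes share a direction, and the printed windows differ in base composition. Capitals mark a match to TGACG, the half-site of the cyclic AMP response element (CRE) motif TGACGTCA, which was searched because the medium held forskolin.
NTN4 (chr12:95791156-95791405, minus strand): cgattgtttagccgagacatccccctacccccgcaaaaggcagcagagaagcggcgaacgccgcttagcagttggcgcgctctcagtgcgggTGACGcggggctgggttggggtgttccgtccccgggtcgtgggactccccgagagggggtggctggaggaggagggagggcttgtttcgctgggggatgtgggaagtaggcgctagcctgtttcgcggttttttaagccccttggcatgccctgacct
RGMA (chr15:93089212-93089461, minus strand): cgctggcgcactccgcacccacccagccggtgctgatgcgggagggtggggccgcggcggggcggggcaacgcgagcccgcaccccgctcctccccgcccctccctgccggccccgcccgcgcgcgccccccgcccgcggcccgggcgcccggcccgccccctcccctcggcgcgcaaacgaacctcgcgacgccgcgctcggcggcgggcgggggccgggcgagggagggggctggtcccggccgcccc
RGMB (chr5:98768382-98768631, plus strand): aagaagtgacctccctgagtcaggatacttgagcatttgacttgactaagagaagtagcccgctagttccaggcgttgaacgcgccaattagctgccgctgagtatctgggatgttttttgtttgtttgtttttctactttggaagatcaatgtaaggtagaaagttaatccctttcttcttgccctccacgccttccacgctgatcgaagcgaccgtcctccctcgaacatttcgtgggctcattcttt

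The GC content was 64.4% for the NTN4 window, 86.4% for the RGMA window and 46.8% for the RGMB window, beside a median of 58.0% over all 35116 windows. The RGMA window held 44 CpG pairs, the NTN4 window 20 and the RGMB window 12, with a median of 11 over all windows. At the other starts of these genes the GC content was 78.4% for NTN4, 49.6 to 77.6% for RGMA, and 66.4 and 67.2% for RGMB. The contrast in base composition therefore holds for the printed windows only. Both strands of all windows of the 7 genes were searched for 4 motifs. TGACG, which also lies inside the full CRE motif, was found in windows of NTN4 (bases -158 to -154 before the start), UNC5C (-114 to -110) and RGMB (-133 to -129, entry 3 of its starts), as in 21.2% of all windows. The core of the interferon-stimulated response element, searched as GAAA, any 2 bases and GAAA again, was found in the NEO1 window (-50 to -41) as in 3.02% of all windows. TGACGTCA, held by 1.65% of all windows, and the ETS motif CCGGAAGT, held by 3.42%, were not found. Positions are counted from the RefSeq starts. The matched windows of UNC5C (chr4:95548974-95549223), NEO1 (chr15:73051652-73051901) and RGMB (chr5:98773413-98773662) lie partly or wholly inside the GENCODE spans given above. A match is a match of letters only and says nothing of binding.

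The order of the levels changed with time. In the control the mean FPKM decreased in the order RGMB, UNC5C, NTN4, RGMA, NTN1, UNC5B, NEO1, UNC5D, UNC5A and DCC. There the libraries of UNC5B, NEO1 and UNC5D overlapped with each other, as did those of UNC5A and DCC at 0. In the day-7 knockdown the order was RGMB, NTN4, RGMA, UNC5C, UNC5B, UNC5D, NTN1, NEO1, UNC5A and DCC, where RGMA and UNC5C overlapped, as did UNC5A and DCC. UNC5B and UNC5D thus passed NTN1, which had stood above both of them at 3 dpi.

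The ratio of ligand to receptor mRNA depended on which ligand and receptor were set against each other. NTN1 over UNC5B was 5.97, 8.55 and 9.41 in the control libraries, 4.96, 4.26 and 4.37 in the day-3 knockdown and 0.437, 0.401 and 0.301 in the day-7 knockdown. The 3 groups did not overlap, and NTN1 mRNA went from several-fold above UNC5B mRNA to below it. NTN4 over UNC5B was 27.6 ± 2.53 in the control, 17.4 ± 1.82 in the day-3 knockdown and 2.61 ± 0.0534 in the day-7 knockdown (SD, n = 3 each), so NTN4 stayed the more abundant of this pair. For NTN1 and NTN4 together over the 4 UNC5 receptors the ratio was 0.85, 0.778 and 1.1 in the control, 0.99, 0.866 and 0.976 in the day-3 knockdown, and 0.939, 0.953 and 1.09 in the day-7 knockdown. The groups overlapped in this ratio, and the means were 0.909, 0.944 and 0.994. The sum of NTN1 and NTN4 went from 9.87 ± 0.243 and 10.2 ± 0.354 FPKM at 3 dpi to 17.0 ± 0.533 FPKM at 7 dpi, beside the UNC5 sum given above, and NTN4 made up 77.7, 79.3 and 87.3% of it in the 3 groups. These ratios were formed from the tested levels and carry no test of their own.

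For the RGM arm, RGMA over NEO1 was 11.4, 24.9 and 27.7 in the control, 20.1, 36.0 and 13.0 in the day-3 knockdown, and 8.94, 6.74 and 10.6 in the day-7 knockdown. The 7 dpi libraries were below all others, while the 3 dpi libraries spread widely, with NEO1, the divisor, at 0.359 FPKM or less. RGMA and RGMB together over NEO1 gave 157 ± 55.1, 159 ± 62.0 and 48.8 ± 2.05 in the same order, and the value for the day-3 knockdown was 194 without replicate 3. The RGM sum was 29.7, 32.6 and 45.9 FPKM and RGMA made up 13.6, 14.3 and 18.0% of it. All 4 ligands over all 6 receptors came to 3.56 ± 0.534, 3.87 ± 0.0816 and 3.49 ± 0.346, and the groups overlapped.

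The genes with the pattern most like that of UNC5B were found by the root mean square (RMS) difference of centred log2(FPKM + 0.1) over the 9 libraries, among 11339 genes with a symbol and a mean of at least 1 FPKM. KCNK2, a potassium channel, was nearest, with an RMS difference of 0.167 and mean levels of 0.57, 0.77 and 8.2 FPKM in the control, the day-3 knockdown and the day-7 knockdown. LRIG1, a membrane protein that restrains growth factor receptors, followed with 0.223, LBH with 0.238, MDK, a heparin-binding growth factor, with 0.256, and BTN3A3 with 0.28. Among the members UNC5D was nearest, at rank 8 with an RMS difference of 0.293, whereas NEO1 had 0.941 and NTN1 and UNC5C had 1.75 and 1.94. The 9 points are libraries of 3 groups, so the measure reflects the group means almost alone and carries no test.

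The wider pathway was read from a list of 87 further genes, of which 78 were tested. From the day-3 knockdown to the day-7 knockdown 24 rose and 16 fell at the FDR, where 35.8% of all tested genes passed and 20.3% passed as higher. Past the fold threshold too were 15 and 7 of them, where 14.2% of all genes were. The median log2 fold change of the list was 0.09, the same as over all genes. Against the control 22 rose and 15 fell, where 35.6% of all genes passed and 20.6% passed as higher. At 3 dpi none passed by limma and 5 had an unadjusted p below 0.05, as had 7.24% of all genes. Without sh-Luci-3d replicate 3, 7 passed the FDR, though not the fold threshold, where 6.37% of all genes passed. The largest rises and falls named below by rule were the same 6 genes in both comparisons with the day-7 knockdown, and the other genes were picked after their values were seen.

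The counts by class that follow are for the knockdown groups and stand against 35.8% of all genes passing and 20.3% passing as higher. Of 8 other ligands tested, 4 rose and 1 fell. NTNG2, a membrane-anchored netrin-G that binds other partners than DCC or UNC5, had 2.97, 2.62 and 2.66 FPKM in the day-3 knockdown and 18.0, 18.3 and 15.9 FPKM in the day-7 knockdown (log2 fold change 2.62, limma adjusted p = 2.15e-08). NTNG1, the other netrin-G, went from 6.65 ± 0.547 to 20.5 ± 1.83 FPKM (log2 fold change 1.61), and FLRT3, a ligand of UNC5 receptors, from 0.229 ± 0.0435 to 1.51 ± 0.135 FPKM (2.29 on the log2 scale). BMP6, a BMP ligand that RGM proteins can bind, fell from 1.64, 1.51 and 1.84 FPKM to 0.247, 0.357 and 0.294 FPKM (log2 fold change -2.15, limma adjusted p = 4.44e-06).

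Among 15 other receptors and co-receptors 6 rose and 3 fell. LRRC4C, the receptor of netrin-G1, had 0.489, 0.482 and 0.452 FPKM in the day-3 knockdown and 3.3, 3.52 and 3.37 FPKM in the day-7 knockdown (log2 fold change 2.61, limma adjusted p = 7.38e-07). MCAM went from 33.0 ± 0.902 to 102 ± 4.55 FPKM (1.62 on the log2 scale), and ADGRL3, a latrophilin that forms complexes with FLRT and UNC5 proteins, from 0.27 ± 0.0332 to 2.15 ± 0.334 FPKM (2.60). The 3 that fell were the integrin genes ITGA3, ITGB1 and ITGB4, of which ITGB1 missed the FDR with quantile normalization (limma adjusted p = 0.0206). ITGB4, a laminin receptor subunit, went from 105 ± 3.46 to 49.2 ± 1.81 FPKM (-1.09 on the log2 scale).

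Of 12 genes for shedding, trafficking and stability of the receptors 7 rose and 1, FURIN, fell. LRIG1 had 7.37, 7.27 and 6.83 FPKM in the day-3 knockdown and 80.0, 76.6 and 69.5 FPKM in the day-7 knockdown (log2 fold change 3.38, limma adjusted p = 1.87e-09), and LRIG2, known to limit neogenin shedding, had a log2 fold change of 1.15. Of 13 death effectors 3 rose and 2 fell, a share close to that of all genes. DAPK1, the kinase downstream of UNC5B and likewise a candidate of the study from these libraries, had 0.316, 0.383 and 0.423 FPKM in the day-3 knockdown and 2.31, 2.67 and 2.32 FPKM in the day-7 knockdown (log2 fold change 2.42). MAGED1 and MAGEH1 rose too, whereas CIP2A, an inhibitor of the phosphatase PP2A, fell from 8.87 ± 0.366 to 3.74 ± 0.558 FPKM (log2 fold change -1.23), as did SET, another inhibitor of PP2A.

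Among 30 cytoskeletal effectors 4 rose and 9 fell, and the median log2 fold change was -0.07, beside 0.092 over all genes. ABLIM1, an actin-binding LIM protein, fell from 9.87, 12.2 and 11.1 FPKM to 3.68, 3.69 and 3.13 FPKM (log2 fold change -1.63, limma adjusted p = 8.6e-07). MAP1B, a microtubule-associated protein of growing axons, fell from 64.7, 61.8 and 62.7 FPKM to 24.6, 23.2 and 16.6 FPKM (-1.57, limma adjusted p = 1.34e-05). FYN, a kinase that phosphorylates DCC, rose from 7.01 ± 0.826 to 16.3 ± 0.655 FPKM (1.21 on the log2 scale). RHOA, the GTPase downstream of RGMA, fell from 185 ± 10.4 to 125 ± 15.5 FPKM (-0.57). That call was lost with quantile normalization (-0.47, limma adjusted p = 0.0138). The RHOA values are mRNA only. For RhoA activity the study reported changes similar to those of NTN4 and RGMA protein, which increased with induction time.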

How the data were processed

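Total RNA of U251 cells was sequenced on an Illumina HiSeq. The deposited table holds FPKM values that the authors computed, in 9 columns, for 19932 gene symbols and 2363 assembled loci without a symbol. The submitters' processing notes name HISAT2 and GRCh38, and the counting program is not given in the sources used here. Whole reads could not be recovered from the low values (between any pair of libraries at most 1.31% of the ratios of genes under 0.1 FPKM fell within one window of 0.005 natural log units), so no count test was run. The strandedness is not stated, so reads of antisense genes such as UNC5B-AS1 and RGMB-AS1, which are no rows of the table, cannot be told apart from those of the members.

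Genes whose mean over the 9 libraries reached 0.1 FPKM were tested with limma 3.58.1 (lmFit, eBayes with trend, R 4.3.3) on log2(FPKM + 0.1), in one model of the 3 groups, with Benjamini-Hochberg adjustment over 15551 genes. On this scale changes of low genes come out too small. Differential genes had an FDR below 0.05 (3 dpi) or 0.01 (comparisons with 7 dpi) and a fold above 2. These are the study's thresholds, and that of the knockdown groups was taken over for 7 dpi against the control. Scripts were tested on simulated data. Sums, shares and ratios were formed per library. Named were all members, PTBP1, the 3 largest rises and falls of the wider list among genes averaging 1 FPKM or more, and the 5 genes most like UNC5B; other pathway genes were picked after their values were seen. The members and lists were chosen with earlier results of these data known. Alternatives were another pseudocount, filter, scaling, a replicate block and leaving out each library.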

Additional observations from a re-analysis of the deposited data

How the results depend on the processing

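The calls of UNC5B, UNC5D, NEO1 and NTN4 in both comparisons with sh-Ptbp1-7d, and the absence of calls among the members at 3 dpi, held under all alternatives in which the gene was tested (NEO1, with a mean below 1 FPKM, drops out of the filter at that level). The members past both thresholds were 3 to 4 in each comparison with sh-Ptbp1-7d when single libraries were left out and 0 at 3 dpi, and those of the wider list were 21 to 24, 19 to 21 and 0. With a pseudocount of 1 the members past both thresholds were 2 in each comparison with sh-Ptbp1-7d, UNC5B and UNC5D, since a larger pseudocount shrinks the folds of low genes. NEO1 then passed the FDR but not the fold threshold in both. Libraries of different groups that share a number did not deviate together (r from -0.0317 to 0.0512 over 9 pairs, best with the own number in 6 of 18 cases). With the replicate number as a block, 7 of 8 members passed the FDR against sh-Luci-3d, UNC5C with an adjusted p of 0.0091, and calls over all genes at 3 dpi went from 5 to 0, PTBP1 among them with an adjusted p of 0.0583. Those calls were 993 without sh-Luci-3d replicate 3, and the cause was not tested. RGMA at 7 dpi against sh-Luci-3d missed with quantile normalization (0.01). With 0.1 FPKM added to both terms, NTN1 over UNC5B was 6.11 in sh-Luci-3d and 3.9 in sh-Ptbp1-3d, NTN4 over UNC5B 20.5 and 14.5, and RGMA and RGMB over NEO1 101 in sh-Luci-3d and 44.2 in sh-Ptbp1-7d, since the divisors were low.

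Differences close to 0 changed sign. NTN1 between the sh-Ptbp1 groups was -0.0666 with median-ratio scaling and -0.15 with quantile normalization, and ranged from -0.097 to 0.16 without single libraries (-0.0151 without sh-Ptbp1-3d replicate 2, -0.00854 without sh-Ptbp1-7d replicate 2). NTN1 at 7 dpi against sh-Luci-3d was 0.0493 in TPM, 0.0816 without sh-Luci-3d replicate 3 and 0.11 without sh-Ptbp1-7d replicate 3, from -0.14 over the libraries left out. At 3 dpi UNC5C was 0.0233 (range over libraries left out from -0.22) and NEO1 -0.0672 without sh-Luci-3d replicate 2, NEO1 -0.16 without sh-Ptbp1-3d replicate 3 (range to 0.3), and NTN1 0.0642 without sh-Luci-3d replicate 3 (range from -0.14). The median of all genes between the sh-Ptbp1 groups was 0.0924, 0.191 in TPM and -0.00871 after quantile normalization, so folds of RGMB and UNC5C are to be read beside this shift. Depth is unknown, and levels under 1 FPKM, as of UNC5A, DCC and NEO1, and of UNC5B and UNC5D at 3 dpi, may rest on few reads. A pseudocount of 1 gave UNC5B 2.19 and UNC5D 1.94 (log2) from sh-Ptbp1-3d to sh-Ptbp1-7d, and both still passed.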
